A study of Mus musculus with 10 samples.

Results

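RNA levels of 8 transcription factors of the epithelial-mesenchymal transition (EMT) were examined in intestinal organoids. The genes were Snai1, Snai2, Twist1, Twist2, Zeb1, Zeb2, Prrx1 and Foxc2, taken by gene symbol as a list of known factors. All 8 were found among 47069 genes of the table. These genes and the gene lists used below were chosen with earlier results of these data known, so counts over them are descriptions. EMT is the process in which an epithelial cell gives up its junctions and polarity and takes on a motile, fibroblast-like form. The Snail proteins (Snai1, Snai2) and the Zeb proteins (Zeb1, Zeb2) are zinc finger repressors that bind E-box sequences in promoters of junction genes such as Cdh1, and the Twist proteins (Twist1, Twist2) are basic helix-loop-helix factors that pair with E proteins. Prrx1 is a homeobox factor and Foxc2 a forkhead factor. None of these genes belongs to EMT alone, since fibroblasts, muscle precursors, endothelium and macrophages transcribe several of them in normal tissue.

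There were 10 libraries from organoids of C57BL/6 mice, all grown for 50 days in Matrigel with Noggin, EGF and R-spondin-1, with 2 libraries in each of 5 groups. The control group received saline, the DMBA group the carcinogen 7,12-dimethylbenzanthracene (labelled Long), and 2 groups tamoxifen (TAM) under labels of a dosage-sensitive treatment, called TAM short and TAM long here. The last group received both agents (DMBA+TAM). By the methods of the study the mice were Lgr5-EGFP-CreERT2; Ppp2r1a flox/flox, so tamoxifen activates a Cre that is made in Lgr5-positive crypt stem cells and the groups without tamoxifen carry the same floxed alleles. What short, long and dosage-sensitive mean is not given in the sources used here. The libraries are named NS (control), NL (DMBA), DSS_S (TAM short), DSS_L (TAM long) and Lgr5 (DMBA+TAM), names that do not spell out the treatments of their labels, and the groups here follow the labels. What the S shared by control and TAM short and the L shared by DMBA and TAM long stand for is not given in the sources used here. Nothing says whether the 2 libraries of a group came from separate mice or cultures, so p-values measure the spread between these libraries, which may be technical.

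The DMBA+TAM libraries stood apart from the others. They held 1592366 and 1915270 counts against 8828247 to 10923673 in the other 8, so 3 counts equal 1.58 and 1.32 normalized CPM there and 0.259 to 0.379 elsewhere. Normalized CPM is the count per 1000000 counts of the library, with totals corrected by the trimmed mean of M-values (TMM). The 10 epithelial markers summed to 39.6 and 25.6 normalized CPM in DMBA+TAM and to 16630 to 38270 in the other libraries, which goes against the label of an intestinal organoid for these 2 libraries. Ppp2r1a, the floxed gene, had 129 and 133 normalized CPM in DMBA+TAM and 123 and 129 in control. Its counts are sums over all exons, of which tamoxifen removes a few, and its Cre acts in Lgr5-positive cells, so they do not check the labels.

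The 8 genes lie on 6 chromosomes of the mouse genome build GRCm38. Snai1 (ENSMUSG00000042821) lies at chr2:167538195-167542814 on the plus strand, Snai2 (ENSMUSG00000022676) at chr16:14705852-14709395 on the plus strand, Twist1 (ENSMUSG00000035799) at chr12:33957671-33959817 on the plus strand and Twist2 (ENSMUSG00000007805) at chr1:91801461-91848028 on the plus strand. Zeb1 (ENSMUSG00000024238) lies at chr18:5591860-5775467 on the plus strand, Zeb2 (ENSMUSG00000026872) at chr2:44983632-45117395 on the minus strand, Prrx1 (ENSMUSG00000026586) at chr1:163245119-163313710 on the minus strand and Foxc2 (ENSMUSG00000046714) at chr8:121116171-121118895 on the plus strand. Exons of an antisense gene overlap exons of Zeb2 (Zeb2os, 9 counts over all libraries), Zeb1 (Gm10125, 28 counts) and Twist2 (Gm29100, 2 counts). Whether the counting used strand is not given, so reads of these pairs cannot be told apart.

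The factors rose in DMBA+TAM, and both DMBA+TAM libraries lay above all 8 other libraries for each of them. Of all 16179 genes tested, 24.7% had both DMBA+TAM libraries above all others. The filter on low counts asks for 1.02 CPM in at least 2 libraries. Of the 8 libraries outside DMBA+TAM, 0 reached that level for Twist2, 1 for Foxc2, 2 for Snai1, 5 each for Snai2, Twist1 and Prrx1, and 8 each for Zeb1 and Zeb2. Twist2 and Foxc2 thus passed the filter only through DMBA+TAM and had to differ, so their calls are a description. The study had reported upregulation of Snai1, Snai2 and Twist1 with both agents from these data, and the members were chosen with earlier results known. The counts of the other 6 members, whose outcome the filter did not fix, are thus descriptions too. By the quasi-likelihood test of edgeR, with p-values adjusted by Benjamini and Hochberg over all genes and a threshold of 0.05, 6 of these 6 were higher than in control (29.0% of all genes were higher), 6 of 6 higher than in DMBA (25.2%), 6 of 6 higher than in TAM long (25.3%) and 6 of 6 higher than in TAM short (29.3%). Twist2 and Foxc2 were also called higher in each. The median log2 fold change with these 2 included was 4.15 where control was the reference, 3.56 for DMBA, 3.53 for TAM long and 5.11 for TAM short, beside medians over all genes of -0.17, -0.14, -0.14 and -0.14. These 4 comparisons share the DMBA+TAM libraries. In bulk RNA a larger part of cells of a type and more RNA per cell cannot be told apart.

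**Figure D1:**
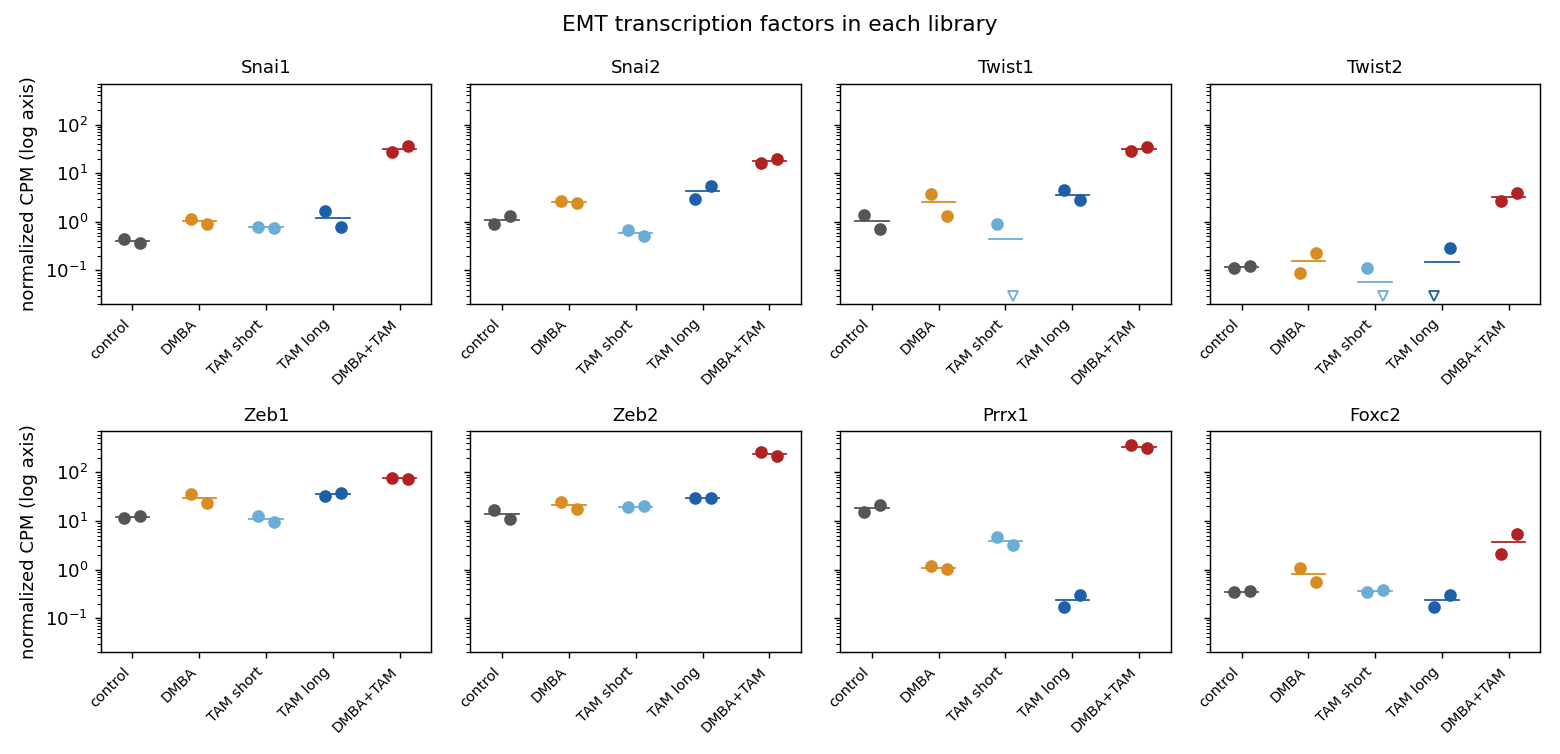
Normalized CPM (log axis) of each factor in each of the 10 libraries by group; points are libraries, lines are group means and open triangles are libraries with no count. Both DMBA+TAM points are the highest of each panel, and Prrx1 falls from 18.2 CPM in control to 0.234 in TAM long before its 336 in DMBA+TAM.

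Levels compared per length, as FPKM (fragments scaled by gene length and library total), put the factors in an order that differed between groups. In DMBA+TAM, Zeb2 was first with 128 ± 20.3 FPKM (mean ± SD, n = 2 libraries here and throughout), Prrx1 had 98.8 ± 10.8 and Zeb1 48.2 ± 2.61. Snai1 followed with 23.4 ± 4.66 FPKM, Twist1 with 23.1 ± 2.48 and Snai2 with 10.4 ± 1.22. Twist2 had 2.03 ± 0.572 and Foxc2 1.61 ± 0.974 FPKM. The libraries of the neighbours Snai1 and Twist1 overlapped, as did those of Twist2 and Foxc2, while the other neighbours did not overlap. In control the first 3 were Zeb1 with 5.38 ± 0.260, Zeb2 with 5.32 ± 1.72 and Prrx1 with 3.79 ± 0.768 FPKM, and the other 5 lay between 0.0512 and 0.547.

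Among the Snail genes, Snai1, the factor that represses Cdh1 early in EMT and gastrulation, was counted 4 and 3 times in control, 13 and 8 times in DMBA, 7 and 6 in TAM short, 19 and 8 in TAM long, and 52 and 83 in DMBA+TAM. As normalized CPM it stood at 0.452 and 0.361 in control, between 0.757 and 1.64 in the next 3 groups, and at 27.4 and 36.6 in DMBA+TAM. The DMBA+TAM libraries were far above all others in spite of their lower totals. Against control the log2 fold change was 6.24 ± 0.45 (SE; adjusted p = 1.35e-06, edgeR), the highest of the 8 members in that comparison. Against TAM long it was 4.69 ± 0.39 (adjusted p = 4.59e-06, edgeR).

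Snai2, also called Slug, had 0.904 and 1.32 normalized CPM in control, 2.68 and 2.47 in DMBA, 0.678 and 0.505 in TAM short, 2.93 and 5.50 in TAM long, and 16.4 and 19.4 in DMBA+TAM. The order of the groups was TAM short, control, DMBA, TAM long and DMBA+TAM, with no overlap between neighbours. Its log2 fold change in DMBA+TAM was 3.99 ± 0.42 against control (adjusted p = 1.85e-05, edgeR) and 2.09 ± 0.36 against TAM long (adjusted p = 0.00078, edgeR).

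Among the Twist genes, Twist1, which is needed for mesoderm and cranial mesenchyme, was counted 12 and 6 times in control, 42 and 12 times in DMBA, 8 and 0 in TAM short, 52 and 28 in TAM long, and 55 and 77 in DMBA+TAM. These are 1.36 and 0.723 normalized CPM in control, 3.75 and 1.35 in DMBA, 0.904 and 0 in TAM short, 4.48 and 2.75 in TAM long, and 29.0 and 33.9 in DMBA+TAM. The libraries of DMBA overlapped those of control and of TAM long, and the DMBA+TAM libraries overlapped none. The log2 fold change against control was 4.89 ± 0.69 (adjusted p = 0.000144, edgeR). Twist2, the related factor of dermal and bone precursors, had 0 to 3 counts in each of the other 8 libraries and 5 and 9 in DMBA+TAM. Over the group that is 14 counts in DMBA+TAM and 2 in control, a ratio of normalized levels of 28.8 with an exact counting interval of 95% from 6.62 to 261. That interval covers counting error only, as reads without molecular identifiers are not independent molecules.

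Among the Zeb genes, Zeb1 had 11.3 and 12.5 normalized CPM in control, 35.4 and 23.9 in DMBA, 12.7 and 9.46 in TAM short, 32.3 and 38.5 in TAM long, and 78.7 and 73.1 in DMBA+TAM. Control and TAM short overlapped, as did DMBA and TAM long. The log2 fold change in DMBA+TAM was 2.67 ± 0.22 against control (adjusted p = 3.83e-06, edgeR), 1.35 ± 0.21 against DMBA (adjusted p = 0.000414) and 1.10 ± 0.21 against TAM long (adjusted p = 0.0014). By this fit these were the smallest rises of the 8 members in the 3 comparisons. With limma on log2(FPKM + 1) against control, Foxc2 (1.18) and Twist2 (1.52) rose less than Zeb1 (2.95). Zeb2, which is also transcribed in macrophages and Schwann cells, had 17.1 and 11.1 normalized CPM in control, 24.5 and 17.5 in DMBA, 19.4 and 20.3 in TAM short, 29.8 and 29.7 in TAM long, and 270 and 216 in DMBA+TAM. Both TAM long libraries lay above the other 6 outside DMBA+TAM, and the 2 of DMBA+TAM were far above all 8. The log2 fold change against control was 4.10 ± 0.23 (adjusted p = 2.54e-07, edgeR).

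Prrx1, a homeobox gene of limb, craniofacial and fibroblast-type mesenchyme, had 15.3 and 21.1 normalized CPM in control, 1.16 and 1.01 in DMBA, 4.63 and 3.28 in TAM short, 0.172 and 0.295 in TAM long, and 362 and 311 in DMBA+TAM. No groups overlapped. TAM long rested on 2 and 3 counts. The log2 fold change in DMBA+TAM was 4.21 ± 0.19 against control (adjusted p = 6.99e-08, edgeR), 8.24 ± 0.26 against DMBA (adjusted p = 2.27e-08) and 10.42 ± 0.30 against TAM long (adjusted p = 1.32e-08). Foxc2, a forkhead gene of lymphatic valves and mesenchyme, had 2 to 12 counts in each of the other 8 libraries and 4 and 12 in DMBA+TAM. As normalized CPM these were 0.172 to 1.07 and then 2.11 and 5.29, and its log2 fold change against control was 3.38 ± 0.69 (adjusted p = 0.00166, edgeR), or 2.52 (adjusted p = 0.0478) without DMBA+TAM replicate 2. Against DMBA it was 2.16 ± 0.60 (adjusted p = 0.0122) and became 1.32 (adjusted p = 0.236) without DMBA+TAM replicate 2 and 1.78 (adjusted p = 0.0722) without DMBA replicate 2. Against TAM short it was 3.34 ± 0.69 (adjusted p = 0.00183) and became 2.49 (adjusted p = 0.0506) without DMBA+TAM replicate 2.

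**Figure D2:**
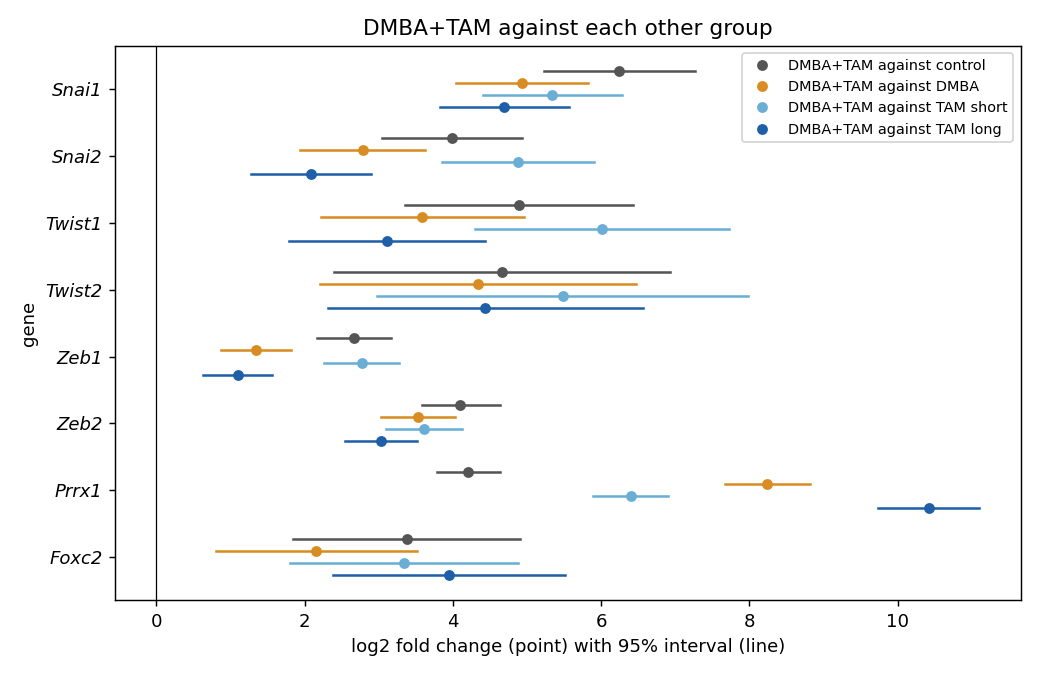
Log2 fold change of each factor in DMBA+TAM against each of the 4 other groups; points are edgeR estimates and lines 95% intervals. All 32 points lie to the right of 0, with Zeb1 nearest to it against TAM long (1.10) and Prrx1 farthest against TAM long (10.42).

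Each group with a single agent was compared with control, and Prrx1 was lower in all 3 of these groups. Of the other factors, 2 were higher under DMBA, 4 under TAM long and 0 under TAM short. The count under DMBA was near the share of all genes. The library names of DMBA and TAM long hold an L where control holds an S, so agent and letter cannot be told apart there. Between DMBA and TAM long 437 genes were called in all, beside 7735 and 7444 when each was compared with control. Of 10 smooth muscle markers 9 were higher than control in each, with median log2 fold changes of 2.16 and 2.32. The part of these markers' cells in the calls below was not tested. In DMBA against control, 2 of 8 members were higher (24.5% of all genes) and 1 was lower (23.3%). Zeb1 rose by a log2 fold change of 1.32 ± 0.21 (adjusted p = 0.000812, edgeR), Snai2 by 1.20 ± 0.43 (adjusted p = 0.0419), and Prrx1 fell by 4.03 on the log2 scale (SE 0.26, adjusted p = 2.81e-06). The calls of Zeb1 and Prrx1 held without each library in turn, and that of Snai2 was lost without any of the 4 (adjusted p from 0.0769 to 0.212). In TAM long against control, 4 of 8 were higher (23.2%) and 1 was lower (22.8%). Snai2 rose by 1.90 ± 0.41 (adjusted p = 0.00435), Zeb1 by 1.57 ± 0.21 (adjusted p = 0.000298), Zeb2 by 1.07 ± 0.22 (adjusted p = 0.00306) and Snai1 by 1.55 ± 0.53 (adjusted p = 0.0362), and Prrx1 fell by 6.21 (SE 0.33, adjusted p = 8.9e-07). The call of Snai1 was lost without control replicate 1 (adjusted p = 0.105), control replicate 2 (0.154) or TAM long replicate 1 (0.336). With all libraries thinned at random to the smallest total, the log2 fold change of Snai1 was between -1.06 and 4.59 over 6 draws and passed in 1 of them, and that of Snai2 was between 0.84 and 2.17 and also passed in 1 of 6 (adjusted p from 0.0321 to 0.379).

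In TAM short against control, 0 of 8 members were higher (6.52% of all genes) and 1 was lower (7.80%), Prrx1, which fell by 2.19 on the log2 scale (SE 0.22, adjusted p = 0.000234, edgeR). At an unadjusted p below 0.05 the count higher was also 0, and with DESeq2 it was 0. The other 7 had estimates from -1.12 (Twist1) to 0.90 (Snai1), with adjusted p from 0.18 to 0.997. Over 6 draws of thinned counts, the log2 fold change of Prrx1 was between -3.79 and -1.11 and passed in 5 (edgeR, adjusted p from 0.000438 to 0.0959). TAM long was higher than TAM short for 3 of 8 members (22.0%) and lower for 1 (20.3%). Snai2 was higher by 2.79 ± 0.46 (adjusted p = 0.00108), Zeb1 by 1.67 ± 0.22 (adjusted p = 0.000281) and Twist1 by 2.90 ± 0.81 (adjusted p = 0.0165), and Prrx1 fell by 4.02 (SE 0.40, adjusted p = 6.16e-05). The difference of Twist1 did not pass without TAM short replicate 2, which had 0 counts (adjusted p = 0.0817), or without TAM long replicate 1 (0.0888), and that of Snai2 passed in 3 of 6 draws of thinned counts. Between TAM short and control the fibroblast markers also moved, from 1455 and 1326 summed normalized CPM in control to 832 and 697, with 5 of 12 lower and 1 higher. The T cell markers went from 44.2 and 54.7 to 97.2 and 105.1, with 4 of 8 higher. The macrophage markers went from 221 and 276 to 416 and 380, with 4 of 10 higher. The epithelial markers went from 38030 and 38270 to 31200 and 29940, with 1 of 10 lower. The part of these cell types in the fall of Prrx1 was not tested.

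**Figure D3:**
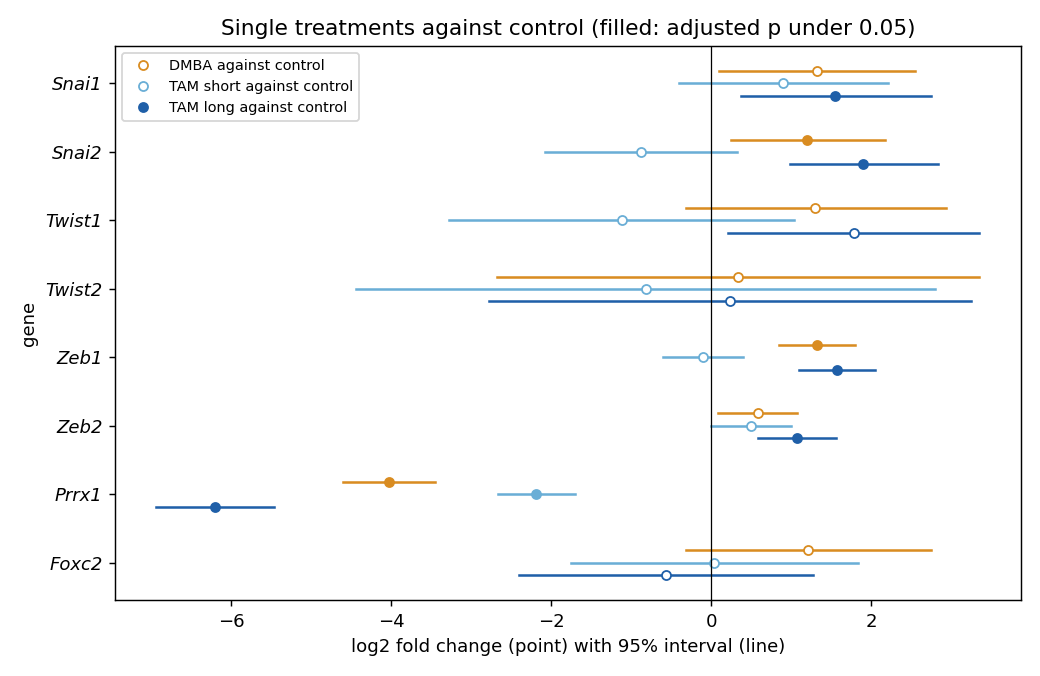
Log2 fold change of each factor in DMBA, TAM short and TAM long against control; points are edgeR estimates, filled where the adjusted p was below 0.05, and lines are 95% intervals. Prrx1 lies left of 0 in all 3 comparisons (-4.03, -2.19 and -6.21), and Snai2 and Zeb1 lie right of 0 in DMBA and TAM long.

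TAM long and DMBA, whose library names both hold an L, were also compared after the data had been seen. By edgeR 0 of 8 members were higher (1.24% of all genes) and 0 lower (1.46%); at an unadjusted p below 0.05 the counts were 1 and 2, and DESeq2 called 0 higher and 1 lower. Prrx1 was nearest to a call, at -2.17 with a 95% interval from -3.30 to -1.05 (adjusted p = 0.0535). Zeb1 differed by 0.25 with an interval from -0.20 to 0.70. With the 4 libraries of DMBA and TAM long against the 4 of control and TAM short, 5 of 8 members were higher (30.4%) and 1 lower (27.5%). These were Zeb1 (1.5 ± 0.15, adjusted p = 2.62e-05), Snai2 (2.00 ± 0.31, adjusted p = 0.000437), Twist1 (2.10 ± 0.55, adjusted p = 0.00814), Zeb2 (0.58 ± 0.15, adjusted p = 0.00916) and Snai1 (0.98 ± 0.36, adjusted p = 0.0396), while Prrx1 fell by 4.03 (SE 0.23, adjusted p = 7.29e-07). The libraries of the 2 sides did not overlap for Zeb1, Snai2 and Prrx1 and overlapped for Twist1, Zeb2 and Snai1. Over 6 draws of thinned counts, Snai1 had log2 fold changes of -0.26 to 2.92 and passed in 1, so its direction was not kept. Snai2 passed in 3 of 6, Twist1 and Zeb2 in 5 each, and Zeb1 and Prrx1 in 6 each. The call of Snai1 was lost (adjusted p from 0.0775 to 0.199) when any library other than DMBA replicate 2 or TAM long replicate 2 was left out. The treatments and the S and L of the names cannot be told apart in this design. The 10 smooth muscle markers moved with this split, from 1315 to 2480 summed normalized CPM in control and TAM short to 7679 to 13760 in DMBA and TAM long. Between the same sides 9 of 9 glial and neuronal markers, 6 of 6 pericyte markers and 10 of 12 fibroblast markers were higher in DMBA and TAM long, and 7 of 8 T cell markers and 6 of 10 epithelial markers were lower, the latter at 29940 to 38270 summed normalized CPM against 16630 to 19230. The part of these cell types in the differences of the factors was not tested.

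The difference between DMBA+TAM and tamoxifen alone was set against that between DMBA and control as an interaction, in which the treatments and the letters of the names again cannot be told apart. With TAM long as the tamoxifen group, 3 of 8 members passed with a positive term (21.6% of all genes): Snai1 with 3.38 ± 0.75 on the log2 scale (adjusted p = 0.00434, edgeR), Zeb2 with 2.45 ± 0.30 (adjusted p = 0.000121) and Prrx1 with 14.45 ± 0.40 (adjusted p = 1.98e-08). The term of Prrx1 contains its low level in DMBA and in TAM long, at 22 and 5 counts over the group. For Zeb1 the term was -0.22 with a 95% interval from -0.89 to 0.44. With TAM short in place of TAM long, Snai2, Twist1 and Zeb1 also passed with a positive term, for 6 of 8 (19.9% of all genes), and the term of Zeb1 became 1.45 ± 0.31 (adjusted p = 0.00393).

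The shares within the Snail and Zeb pairs did not overlap between control and DMBA+TAM. Snai1 made up 38.5 and 25.5% of the summed FPKM of Snai1 and Snai2 in control, 35.2 and 31.3% in DMBA, 59.4 and 65.3% in TAM short, 41.2 and 15.2% in TAM long, and 67.8 and 70.3% in DMBA+TAM. It was below Snai2 in both libraries of control, DMBA and TAM long and above it in both of TAM short and DMBA+TAM. For TAM short this rests on 13 counts of Snai1 and 10 of Snai2, a pooled share of 56.5% with an exact binomial interval from 34.5 to 76.8%, so which gene led there was not resolved at this depth. The pooled counts give Snai1 64.3% in DMBA+TAM (135 of 135 and 75, exact binomial interval 57.4 to 70.8%) and 26.9% in control (7 of 7 and 19, interval 11.6 to 47.8%). These intervals and those of the Zeb pair cover counting error only, not the spread between libraries. Zeb1 made up 44.3 and 57.6% of the Zeb pair in control, 63.5 and 62.1% in DMBA, 43.9 and 35.9% in TAM short, 56.6 and 60.9% in TAM long, and 25.9 and 28.9% in DMBA+TAM. Zeb2 was thus the major member in both DMBA+TAM libraries, with a pooled count share of Zeb1 of 23.9% (interval 21.6 to 26.3%) against 45.6% in control (interval 41.0 to 50.4%). Twist1 made up 87.7 to 100% of the Twist pair in the 9 libraries with any count of it, 92.9 and 91.1% of it in DMBA+TAM. With 0 to 3 counts of Twist2 in each other library, the pooled count share of Twist1 had intervals of 68.3 to 98.8% in control, 51.8 to 99.7% in TAM short and 84.4 to 94.7% in DMBA+TAM, so whether this share was stable cannot be read at this depth. An exact permutation test of 2 against 2 libraries has 6 splits and cannot go below a two-sided p of 0.333, which the Snail and Zeb shares of DMBA+TAM against control reached.

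**Figure D4:**
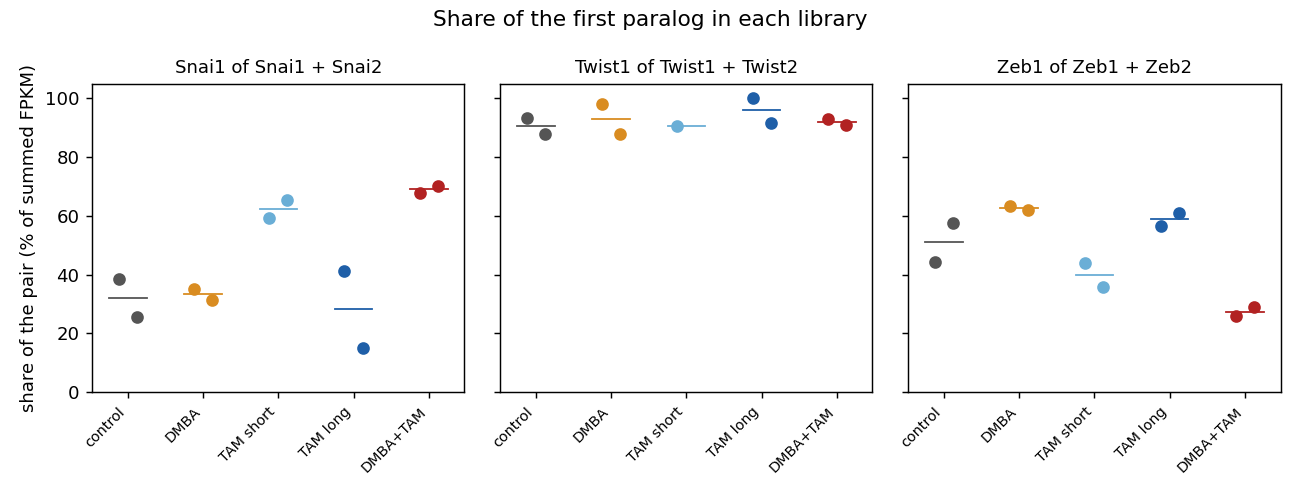
Share of Snai1, Twist1 and Zeb1 in the summed FPKM of their pair, in percent, in each library; points are libraries and lines group means. In DMBA+TAM the Snail pair is led by Snai1 (69.0% on average) and the Zeb pair by Zeb2 (27.4% Zeb1), and the Twist pair lies between 87.7 and 100% in all plotted libraries.

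Markers of other cell types moved with the factors. The 12 fibroblast markers, led by Col3a1 and Col1a1, summed to 32930 and 33710 normalized CPM in DMBA+TAM and to 697 to 2268 elsewhere, and 11 of 12 were higher than in control. The 10 macrophage markers, led by Lyz2 and C1qa, summed to 7535 and 7111 against 221 to 449, with 10 of 10 higher. The 8 fat cell markers summed to 5761 and 2802 against 68.1 to 375, and the 8 blood endothelium markers to 713 and 696 against 76.5 to 144. The 6 pericyte markers were at 793 and 818 against 159 to 1088, the 6 lymphatic markers at 258 and 187 against 54.9 to 122, and the 9 glial and neuronal markers at 93.4 and 77.5 against 12.4 to 81.7. The 10 smooth muscle markers were at 1542 and 1735, within the lower range of the others. Against control, 2 of 10 smooth muscle markers were higher and 6 lower. Of the 6 lymphatic markers 3 were higher and 1 lower, with a median log2 fold change of 0.2. Of the 6 pericyte markers 3 were higher and 0 lower, and of the 9 glial and neuronal markers 4 were higher and 1 lower. The 12 skeletal muscle markers were at 6.86 in DMBA+TAM replicate 1 and at 8575 in replicate 2, led by Myh4 and Acta1, beside 7.80 to 21.3 elsewhere, and Myf5, Pax7 and Tnnc2 were at 0 in replicate 2. Of 8 T cell markers 1 was higher and 4 lower than in control, and of 5 mesothelial markers, which include the epithelial gene Krt19, 1 was higher and 4 lower, beside 35.3% of all genes that were lower. The T cell genes Cd2, Cd3d, Cd3e and Cd3g and the mesothelial genes Lrrn4, Msln and Upk3b were at 0 in both, while Cd4 stood at 8.89 normalized CPM on average against 3.05 in control, Trac at 2.38 against 2.35, and the mesothelial gene Wt1 at 9.38 against 0.463. The part of these cell types in the levels of the factors was not tested.

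Set against the summed fibroblast markers, 0 of 8 factors had both DMBA+TAM libraries above the range of the other 8. Set against the summed smooth muscle markers 8 of 8 had. Dividing by a sum scales every gene of a library alike, and the share of all genes under these scalings was not computed. The 8 include Twist2 and Foxc2, which passed the filter only through DMBA+TAM. Per 1000 normalized CPM of fibroblast markers, Prrx1 stood at 11 and 9.23 in DMBA+TAM and at 0.126 to 15.9 elsewhere, Snai1 at 0.834 and 1.08 (0.272 to 1.20 elsewhere), and Twist1 at 0.882 and 1.01 (0 to 3.28). Zeb1 was at 2.39 and 2.17 against 7.77 to 23.6, Zeb2 at 8.19 and 6.42 against 8.36 to 29.2, and Snai2 at 0.497 and 0.575 against 0.622 to 3.19. These 3 lay below the other 8 libraries on that scale. Twist2 was at 0.0802 and 0.118 against 0 to 0.171, and Foxc2 at 0.0641 and 0.157 against 0.126 to 0.543. Per 1000 normalized CPM of smooth muscle markers, Snai1 stood at 17.8 and 21.1 against 0.0571 to 0.576, Snai2 at 10.6 and 11.2 against 0.206 to 0.680, and Foxc2, the nearest to the other libraries, at 1.37 and 3.05 against 0.0192 to 0.288. Both counts, 0 of 8 and 8 of 8, depended on the level of the reference sum in each library. No conclusion about the factors in particular can be drawn from them. Without DMBA+TAM replicate 2, which held the skeletal muscle markers, 7 members were higher than in control and Twist2 no longer passed the filter. Between the replicates Foxc2 differed most, at 2.11 and 5.29 normalized CPM.

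**Figure D5:**
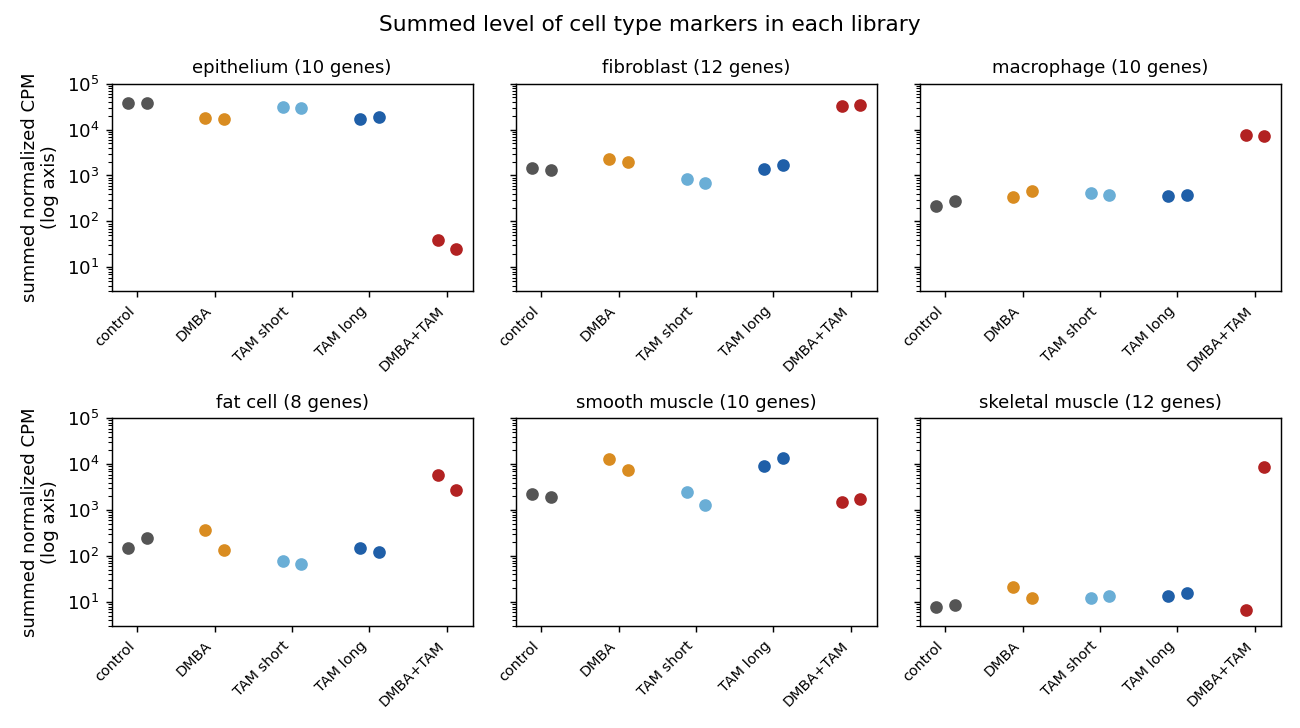
Summed normalized CPM (log axis) of 6 lists of cell type markers in each library; each point is 1 library. Epithelial markers are at 39.6 and 25.6 in DMBA+TAM, fibroblast markers at 32930 and 33710 there, and skeletal muscle markers high in a single library (8575).

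Other factors and partners of the EMT program moved both ways in DMBA+TAM against control. In this comparison 29.0% of all genes were higher and 35.3% lower, and the counts below are read beside these shares. For lower genes, the 3 of 10 and 2 of 7 below did not exceed the 35.3%. Of 10 related transcription factors tested, 5 were higher and 3 lower (median log2 fold change 1.86, beside -0.17 over all genes). Foxc1, the relative of Foxc2, had 2 counts in control and 38 in DMBA+TAM over the group, a ratio of 78.2 with a counting interval from 20.2 to 669. Foxq1, a forkhead factor of epithelial and smooth muscle cells, fell from 37 and 51 counts to 0 and 0, at least 7.12-fold lower by a floor of 3 counts over the group. Of the 7 E proteins and Id inhibitors, which pair with or block Twist-type factors, 4 were higher and 2 lower. Tcf4, an E protein, rose by 1.97 ± 0.13 (adjusted p = 5.99e-07, edgeR), and Id1 and Id4, inhibitors that lack a DNA-binding domain, fell by 1.80 (SE 0.14) and 2.65 (SE 0.55), while the related Id2 and Id3 rose by 0.76 ± 0.24 (adjusted p = 0.0177) and 0.38 ± 0.14 (adjusted p = 0.0353).

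Of the 11 corepressors through which Snail and Zeb proteins act, 1 was higher, 6 were lower and 4 did not pass. The largest changes were small beside those of the factors: Ezh2, the methyltransferase of Polycomb repressive complex, fell by 1.11 (SE 0.19), the deacetylase gene Hdac1 by 0.78 (SE 0.14) and the Polycomb subunit gene Suz12 by 0.66 (SE 0.14). Scaling by library totals alone moved the median of all genes by 0.48 in this comparison and raised the share of calls that were higher from 45.1 to 62.5%, so differences near that size depend on the scaling. Of 9 genes for kinases, ubiquitin ligases and a deubiquitinase that set the stability of Snail protein, 4 were higher and 2 lower. Usp27x, the deubiquitinase, rose from 5 and 4 to 7 and 16 counts (log2 fold change 3.34 ± 0.63) and the kinase gene Lats2 by 2.26 ± 0.18, and the kinase gene Pak1 fell by 2.35 (SE 0.12). Of 17 genes of inducing signals, 13 were higher and 2 lower (median 1.74). The ligand genes Tgfb1 and Tgfb3 rose by 4.33 ± 0.15 (adjusted p = 2.11e-08) and 4.20 ± 0.22 (adjusted p = 1.34e-07), and the receptor gene Tgfbr2 by 3.63 ± 0.12 (adjusted p = 1.81e-08).

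The target genes of the program were lower for junctions and higher for mesenchyme in DMBA+TAM against control. Of 18 mesenchymal targets tested, 18 were higher (29.0% of all genes), with a median log2 fold change of 5.00, beside -0.17 over all genes. Vim, the intermediate filament of mesenchymal cells, rose by 4.96 ± 0.17 (adjusted p = 1.73e-08, edgeR), from 51.9 ± 4.30 to 1616 ± 112 normalized CPM. Lox, the collagen cross-linking enzyme, rose by 8.64 ± 0.26, and Mmp3, a matrix protease, from 4 and 0 counts to 349 and 395. Of 11 factors that keep the epithelial state, 11 were lower (35.3% of all genes). Their median was -9.10, or -5.70 with the 3 genes that had no count in DMBA+TAM at their bound. Ehf, an epithelial ETS factor, was at least 234-fold lower and Grhl2, a repressor of Zeb1, at least 24.5-fold lower, and Hnf4a, the nuclear receptor of enterocytes, fell from 8627 and 7817 counts to 4 and 1. Both lists were written with earlier results of these data known, and the study had reported rises of vimentin and fibronectin, so these counts are descriptions. Some genes, such as Col1a1 and Col3a1, are also in the fibroblast marker list. Since these lists hold fibroblast and epithelial genes, the marker levels above apply to them as well.

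Of 16 genes for junctions and polarity that the factors are known to repress, 16 were lower (35.3% of all genes). Their median was -8.72, or -7.76 with the 3 genes at 0 counts at their bound. The epithelial markers fell alike, with 10 of 10 lower and a median of -9.95, and Epcam and Cldn7 are in both lists. The part of the loss of epithelial markers in the fall of the junction genes was not tested. This list too was written with earlier results of these data known, so its count is a description. Cdh1, which encodes E-cadherin, fell from 783 ± 9.79 to 3.30 ± 0.938 normalized CPM (log2 fold change -7.86 ± 0.23, adjusted p = 1.01e-08, edgeR). Crb3, a polarity gene, was at least 149-fold lower, and Marveld3 and Marveld2, genes of tight junction proteins, at least 104-fold and 63.2-fold lower, all with no count in both DMBA+TAM libraries. Calls in the single treatments were fewer. In DMBA 2 of 16 were higher and 7 lower than in control (24.5 and 23.3% of all genes), in TAM long 1 and 6 (23.2 and 22.8%), and in TAM short 4 and 1 (6.52 and 7.80%). Of the 18 mesenchymal targets, 15 were higher and 1 lower in DMBA than in control, 11 and 2 in TAM long, and 1 and 6 in TAM short.

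Promoters of these genes were searched for the E-box CAGGTG, the sequence that Snail and Zeb proteins bind, with its reverse complement CACCTG, in the 250 bases before each annotated start. Of 16 junction genes, 11 had an entry in the RefSeq promoter table, and 8 of the 11 had at least 1 match beside at least 1 start. Some have several starts. Of the members, Snai1, Twist1, Twist2, Zeb2 and Prrx1 had an entry and Snai1 alone a match. The share of all 32851 promoters searched that held the motif was 17.2%. That share counts single promoters, while the 8 of 11 counts genes with a match beside any start, so they cannot be compared directly. A match is a run of letters and not a measured site, and binding was not measured. Below are 3 of these promoters, chosen after the values were seen, 5′ to 3′ on the strand of the gene, with matches in capitals. They show 2 junction genes that fell, Epcam (log2 fold change -10.76 ± 0.23) and Cldn4 (-9.56 ± 0.48), and the member with a match. From build GRCm38.p6 they are chr17:87635729-87635978 (plus strand) for Epcam, chr5:134946935-134947184 (minus strand) for Cldn4 and chr2:167537945-167538194 (plus strand) for Snai1.
Epcam: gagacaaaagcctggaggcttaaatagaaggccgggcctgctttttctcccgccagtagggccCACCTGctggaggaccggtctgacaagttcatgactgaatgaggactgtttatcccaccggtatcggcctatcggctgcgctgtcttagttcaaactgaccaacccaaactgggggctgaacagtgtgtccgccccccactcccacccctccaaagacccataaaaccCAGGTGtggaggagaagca
Cldn4: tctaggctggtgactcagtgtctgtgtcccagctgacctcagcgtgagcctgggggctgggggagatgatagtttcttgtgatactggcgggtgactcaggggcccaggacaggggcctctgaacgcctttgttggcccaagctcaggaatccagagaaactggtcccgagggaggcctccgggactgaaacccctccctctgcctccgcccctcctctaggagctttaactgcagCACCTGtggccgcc
Snai1: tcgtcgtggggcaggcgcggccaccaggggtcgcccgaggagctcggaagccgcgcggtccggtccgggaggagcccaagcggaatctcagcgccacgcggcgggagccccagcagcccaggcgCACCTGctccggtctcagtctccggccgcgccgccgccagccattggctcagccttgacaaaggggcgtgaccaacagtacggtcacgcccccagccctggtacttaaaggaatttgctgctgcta

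In Epcam the matches begin 187 and 19 bases before the start, in Cldn4 14 bases and in Snai1 126 bases before it. Snai1 was the member with the highest log2 fold change against control, and these genes moved in opposite directions in DMBA+TAM. Nothing about repression can be read from the letters.

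The genes most like each member across the 10 libraries, by Pearson's r of log2 CPM, were Dennd4b (r = 0.997) and Pip4k2a (0.994) for Snai1, Pls3 (0.989) and Akr1b10 (0.988) for Snai2, and D130017N08Rik (0.991) and Soga1 (0.990) for Twist1. For Twist2 they were Susd1 (0.993) and Egfr (0.991), for Zeb1 Mcam and Maged1 (0.994 each), for Zeb2 Dcn and Wnk1 (0.993 each), for Prrx1 Itpripl1 (0.992) and Sh3gl1 (0.991), and for Foxc2 Ndst2 (0.970) and Pprc1 (0.968). Between members, Snai1 and Zeb2 were most alike (0.98) and Zeb1 and Prrx1 least (0.35). The points share libraries, and 2 of the 10 differ from the others in depth and in markers, so these values are descriptions.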

How the data were processed

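Poly-A RNA of 10 organoid libraries was sequenced by the authors. Reads were mapped with TopHat, counted per gene with HTSeq, and FPKM was computed by the authors from counts and gene length; the build is GRCm38.p6 per the labels. The deposited table gives raw counts and FPKM per library. Its group means and the authors' own comparisons (fold changes and p-values) were not used. Of 47069 genes, 16179 passed filterByExpr. Counts were fitted with edgeR 4.0.16 (TMM factors 0.832 to 1.192, quasi-likelihood, 1 mean per group over all 10 libraries) in R 4.3.3, with Benjamini-Hochberg adjustment over all genes at 0.05. The SE is the size of the log2 fold change over the square root of F. Levels between genes use FPKM. A gene without counts in a group was compared at 3 counts over that group. Likeness used log2 CPM with a prior count of 2. Alternatives were DESeq2 1.42.0, limma 3.58.1 on log2(FPKM + 1) and log2(FPKM + 0.1), library totals only, no filter, the compared groups only, a replicate block, a minimum absolute log2 fold change of 1, thinned counts (1 random draw, with 6 further draws added after the data were seen), and leaving out each library. The steps were tested on simulated data. Symbols missing in the table were filled from GENCODE for 24237 genes. Figures used matplotlib 3.10.9.

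The members and lists were chosen with earlier results of these data known. Named genes were the members, the 3 largest changes past the threshold of each pathway list with Cdh1 and Vim, the 2 genes most like each member, and the 2 most abundant genes of marker lists; other names were chosen after their values were seen. Some genes that this rule names are not reported here. Protein levels and promoter entries of other members were not analysed here.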

Additional observations from a re-analysis of the deposited data

Results flagged for a closer look

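The difference between DMBA+TAM and TAM long was more positive than that between DMBA and control for 3 factors, by edgeR's test of the interaction term with 2 libraries a group, beside 21.6% of all genes with a positive term past the threshold. The term was 3.38 on the log2 scale for Snai1 (adjusted p = 0.00434), 2.45 for Zeb2 (adjusted p = 0.000121) and 14.45 for Prrx1 (adjusted p = 1.98e-08). With TAM short in place of TAM long 6 factors passed, and the term of Zeb1 moved from -0.22 to 1.45. The treatments and the S and L of the library names cannot be told apart in these terms. For Snai1, DMBA alone stood at 0.898 and 1.16 normalized CPM against 0.361 and 0.452 in control, while DMBA+TAM stood at 27.4 and 36.6 against 0.786 and 1.64 in TAM long. Prrx1 was lower in DMBA than in control and higher in DMBA+TAM than in TAM long, in every library. The summed fibroblast markers moved with these terms (32930 and 33710 normalized CPM in DMBA+TAM, 697 to 2268 elsewhere), and their part in them was not tested.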

How the results depend on the processing

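The calls of Twist2 and Foxc2, which passed the main filter only through DMBA+TAM, are a description here too. The number of factors higher in DMBA+TAM, these 2 included, was 8 in each of the 4 comparisons under DESeq2, library totals only and no filter. It was also 8 with the compared groups only, both limma fits and a minimum absolute log2 fold change of 1. With counts thinned to the smallest library it was 6, because Twist2 and Foxc2 failed the filter, and with 1 library left out it was 6 to 8. Without DMBA+TAM replicate 2 Twist2 was no longer tested. No direction was reversed under these settings among the log2 fold changes of members past the threshold, of which 33 of the values no longer passed and 599 did. In DMBA against control the count higher was 2 as reported, 4 with library totals only, 4 with no filter, 4 with limma on log2(FPKM + 0.1), 1 with the compared groups only, 1 with thinned counts and 1 to 2 with 1 library left out. In the comparison of DMBA and TAM long with control and TAM short it was 5, and 3 with thinned counts or with a minimum absolute log2 fold change of 1, 4 with DESeq2, the replicate block, the compared groups only or limma on log2(FPKM + 1), and 4 to 5 with 1 library left out. The count of interaction terms was 3, and 6 with TAM short in place of TAM long. The causes were not tested beyond the filter named. The rise of Snai2 in DMBA had adjusted p = 0.0652 with DESeq2 and 0.594 with thinned counts, and that of Snai1 in TAM long 0.0594 with DESeq2 and 0.967 with thinned counts. Thinning is a random draw, and 6 further draws were added after differing draws had been seen. Over them the count in the comparisons of DMBA+TAM stayed at 6, and the others varied, from 1 to 2 in DMBA against control, 2 to 3 in TAM long against control, 2 to 4 in TAM long against TAM short and 2 to 5 for DMBA and TAM long against control and TAM short. Snai1 in TAM long against control had log2 fold changes of -1.06 to 4.59 over these draws and passed in 1 of 6, so its direction was not kept, and Snai2 in DMBA against control passed in 0 of 6 (edgeR, adjusted p = 0.294 to 0.483). Genes called in all for TAM short against control numbered 4317 with the compared groups only and 2317 as reported, and for TAM long against DMBA 29 to 1615 against 437 as reported. Library totals only raised the share of calls that were higher by more than 10 percentage points in all comparisons but those of DMBA+TAM with DMBA and TAM long and of TAM long with DMBA, as from 51.2 to 71.2% in DMBA against control, and members that were called kept their direction. The Snail share in DMBA+TAM minus control was 37.0 percentage points, 36.6 by counts and 30.5 to 43.5 with 1 library left out, and the Zeb share -23.5, -22.5 and -30.2 to -16.9. The Twist share differed by 1.39, and by -1.47 to 4.26 with 1 library left out.

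Replicate numbers are shared by the groups, but deviations of same-numbered libraries correlated at -0.041 to 0.26 and 1 of 10 pairs exceeded 0.1, so the numbers were not taken as a pairing. With the replicate block the counts of factors higher were 8 in the comparisons of DMBA+TAM, 3 in DMBA against control, 4 in TAM long against control, 0 in TAM short against control and 3 for the interaction. Depth limits Twist2 and Foxc2 most, at 14 and 16 counts in DMBA+TAM over both libraries.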
